A study of Mus musculus with 9 samples.

Results

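Solute carrier (SLC) and ATP-binding cassette (ABC) transporter genes were followed in the livers of adult C57BL/6 mice of 2 genotypes. The members were the rows of the authors' table of genes that differed between the genotypes whose symbol begins with Slc, Slco or Abca, Abcb, Abcc, Abcd or Abcg and a digit. They numbered 33 of the 1525 genes listed: 29 SLC genes and 4 ABC genes, in 21 families. In the Alb-D2KO mice (4 livers) a floxed allele of Dio2, which encodes the type 2 deiodinase, was deleted by a Cre recombinase that the albumin promoter drives in hepatocytes. The control mice (5 livers) carried the Cre transgene. Bulk RNA of whole liver was sequenced, so cells other than hepatocytes were also measured. The enzyme converts thyroxine into the active thyroid hormone T3, and the authors state that the liver makes it only shortly after birth. The question was which genes are expressed differently in the adult liver after its loss.

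SLC proteins carry solutes across membranes by facilitated diffusion, exchange or cotransport with ions, and ABC proteins pump substrates by using ATP. In the hepatocyte they move bile acids, drug conjugates, amino acids, carboxylates, vitamins and metals across the sinusoidal and canalicular membranes. Others sit in the inner mitochondrial membrane, in peroxisomes, in the endoplasmic reticulum or in the Golgi, and serve the exchange of substrates between compartments.

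Each listed gene had 1 mean estimated count per genotype, made by the authors over all libraries of that genotype. No value per animal was used, so no SD can be given for a gene, no test over animals was made, and the words lower and higher describe means only. The interval beside a ratio (Alb-D2KO mean over control mean) is an exact 95% Clopper-Pearson interval that covers counting error only, not the spread between animals. The table was itself filtered by the authors on this contrast, keeping genes past 1.2-fold with an unadjusted p under 0.05, and the smallest fold in it was 1.21. A gene that is not listed thus has no value here. In bulk RNA, fewer cells of a type and less RNA per cell cannot be told apart.

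The means were not scaled to depth. Total reads ran from 40234632 to 54504351 per library. Control libraries had 33491489 ± 3199891 reads assigned to genes (SD, n = 5) and Alb-D2KO libraries 31223823 ± 3447611 (SD, n = 4), a log2 difference of -0.10 (exact two-sided permutation test p = 0.302, adjusted p = 0.302 over 6 library measures, and 0.0159 is the smallest p that the design allows). The estimated count of the median gene was 67.4 ± 7.19 in the 5 control libraries and 60.0 ± 10.03 in the 4 Alb-D2KO libraries (mean ± SD, log2 difference -0.18, exact permutation p = 0.175, adjusted p = 0.302). Without Alb-D2KO replicate 1 the latter difference was -0.28, so the ratio of medians rests in part on that library. The exact permutation p of 0.0357 for that difference is unadjusted and is the smallest that the remaining libraries allow. With all libraries, both pairs of groups overlapped. A ratio of 1 at equal RNA would therefore be read here as 0.932 by assigned reads and as 0.890 by library medians, which on the log2 scale are shifts of -0.10 and -0.17. Every member ratio is given as deposited and was also divided by these 2 values and by the ratios of total reads and upper quartiles. These divisions raise every ratio by at most 1.124-fold and the smallest listed fold was 1.21, so none of them could turn a direction, and they bear only on how far below 1 a lower gene lies.

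**Figure D1:**
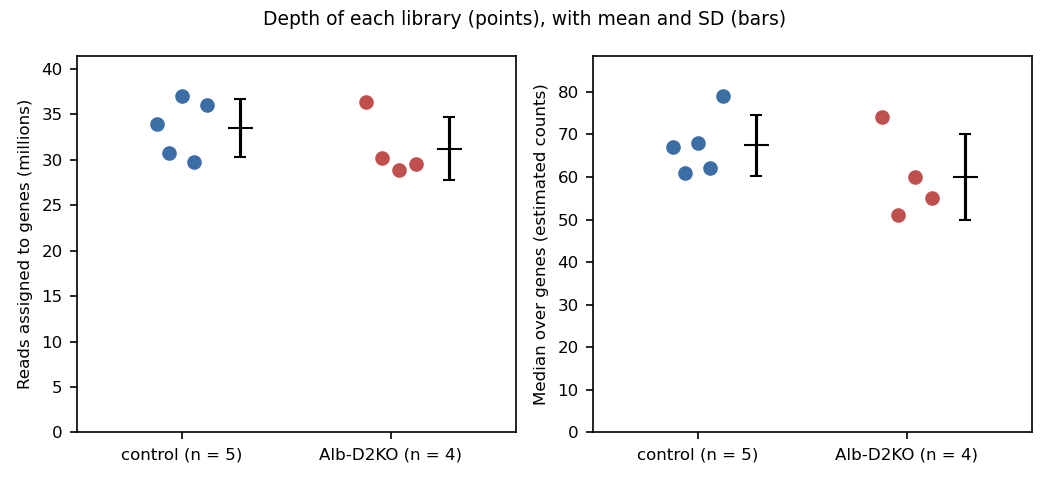
Reads assigned to genes in units of 1000000 (left) and the median estimated count over genes (right) in each library, with the mean and SD of each genotype as bars. The 4 Alb-D2KO libraries overlap the 5 control libraries in both panels, and their means are lower.

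Of the 33 transporter genes, 25 (75.8%) were lower and 8 higher in Alb-D2KO than in control liver. Of all 1525 listed genes, 89.4% were lower, so the transporters held a smaller share of lower genes than the list they were taken from. Past a ratio of 1.5-fold, 12 members (36.4%) were lower, against 45.1% of all listed genes, and 4 members (12.1%) were higher, against 7.93%. After division by the ratio of library medians, 7 members (21.2%) were lower past 1.5-fold, against 31.4% of all listed genes. Past 2-fold as deposited, 3 members (9.09%) were lower, against 16.1%. The median ratio was 0.746 for the transporters (log2 -0.42) and 0.686 for all listed genes (log2 -0.54). Among the lower members alone the median was 0.695, against 0.665 for all lower genes, and among the higher members 1.49, against 1.69. The members were also counted more deeply, with a median summed count of 6625 against 1797 for all listed genes. At a summed count of at least 1000, 5 members (21.7%) were lower past 1.5-fold, against 20.5% of all listed genes. At that minimum 73.9% of members were lower at all, against 90.1%. The 1.5-fold shares as deposited therefore compare genes of unlike depth, and no gap was tested.

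After division by the ratio of assigned reads, 21 members (63.6%) were lower by over 1.2-fold, against 78.4% of all listed genes. After division by the ratio of library medians, 15 (45.5%) were lower by over 1.2-fold, against 65.0%. Lower genes then made up 65.2% of the members past 1.2-fold, where they make up 75.8% as deposited, and 85.9% of all listed genes past it. The counting interval lay below 1 in 24 members, also under each of the 4 divisions, and above 1 in 8. The remaining member was Slc1a1, which had the lowest summed count of the group. The intervals were not computed for the other listed genes. Since the list was filtered on this contrast, intervals clear of 1 say nothing particular about transporters.

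**Figure D2:**
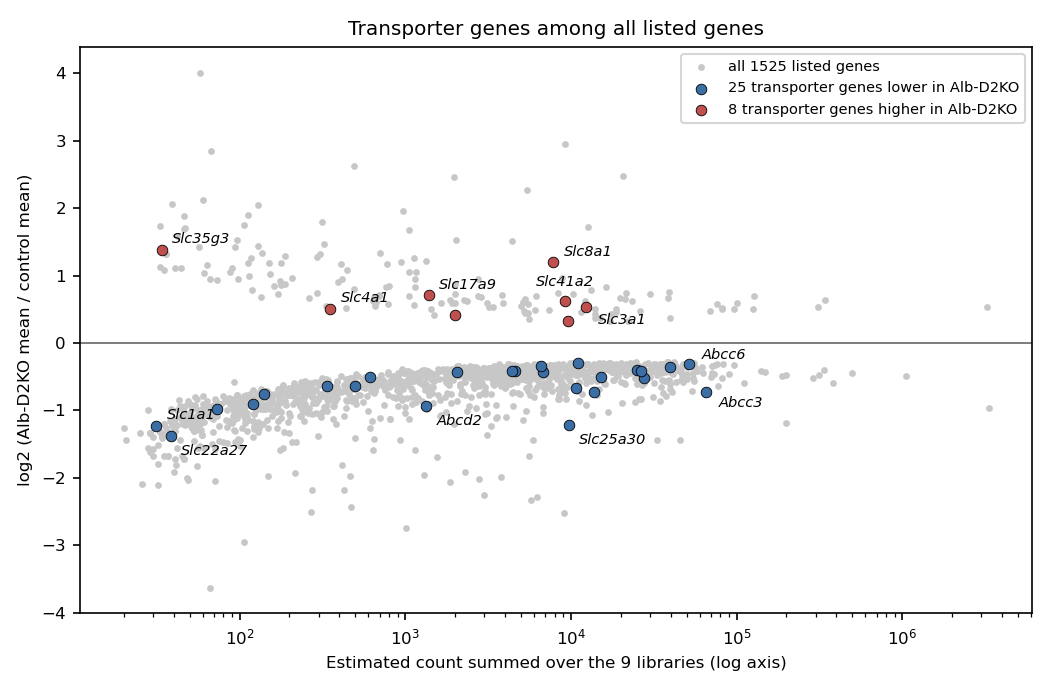
Log2 ratio of the Alb-D2KO mean to the control mean against the estimated count summed over the 9 libraries (log axis), for all listed genes (grey) and the 33 transporter genes (blue lower, red higher in Alb-D2KO). Genes with few counts are listed only at large ratios, and the transporters follow this: Slc1a1 and Slc22a27 lie among the low-count genes, Slc25a30 and Slc8a1 among the well-counted ones.

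The size of a listed ratio depended on depth. Listed genes with a summed count under 100 had a median ratio of 0.465, and the 4 transporters among them had 0.466. Listed genes with a summed count of 10000 or more had a median ratio of 0.766, and the 11 transporters among them had 0.753. The members with the most extreme ratios and few counts (Slc22a27, Slc1a1, Slc52a3 and Slc35g3) are thus read with the least precision.

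In the mouse annotation (GENCODE M21, mm10), 431 protein-coding genes carry such a transporter symbol, and 33 of them (7.66%) were listed. Of all annotated protein-coding genes, 1048 of 21924 (4.78%) were. The 25 annotated SLC22 genes gave 4 listed genes, the 47 SLC25 genes gave 3, the 27 SLC35 genes gave 3 and the 10 ABCC genes gave 2. None of the 14 SLCO, 10 ABCB and 6 ABCG genes was listed. The annotated genes include many that liver does not express, and how many of them could have been listed is not known.

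**Figure D3:**
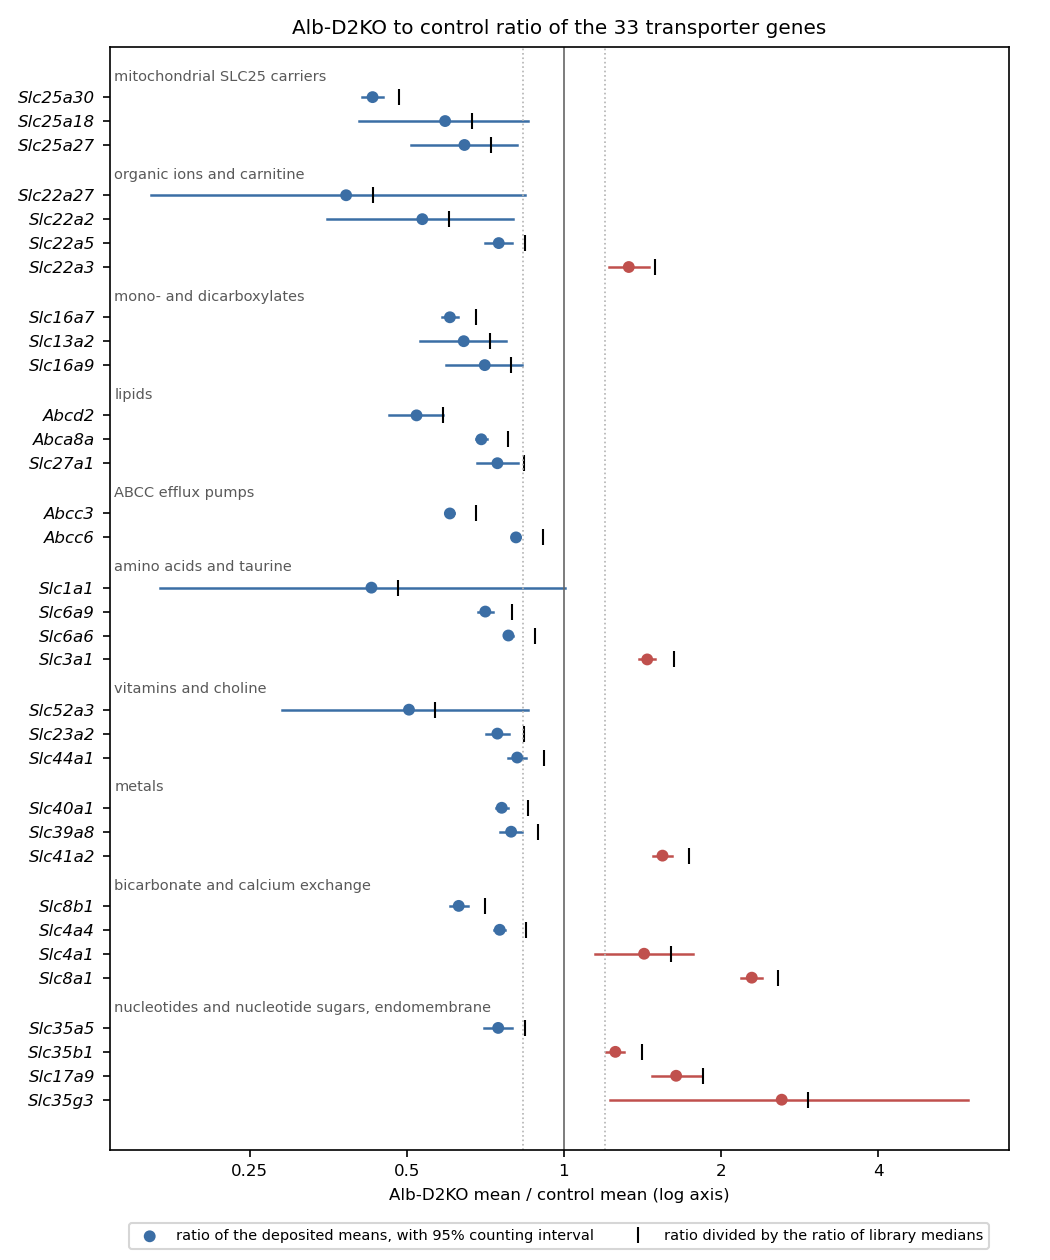
Ratio of the Alb-D2KO mean to the control mean of each transporter gene (log axis), by substrate class, with its 95% counting interval (blue lower, red higher), and a black tick for the ratio after division by the ratio of library medians. Dotted lines mark 1.2-fold in either direction, and every gene of the mitochondrial, carboxylate, lipid, ABCC and vitamin classes lies to the left of 1.

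The windows around the start sites of 4 genes are shown first, because these genes carry the widest contrasts among well-counted members or lie side by side with opposite directions. Each holds 250 bases before and 50 bases after an annotated start, 5′ to 3′ on the strand of the gene, as given by RefSeq on GRCm38.p6. Slc25a30 was lower by the widest ratio among members with a summed count over 1000 (chr14:75786988-75787287, minus strand). Slc8a1 was higher by the widest ratio among them (chr17:81738338-81738637, minus strand). Slc22a2 (chr17:12583939-12584238, plus strand) and Slc22a3 (chr17:12507655-12507954, minus strand) are neighbours.
Slc25a30: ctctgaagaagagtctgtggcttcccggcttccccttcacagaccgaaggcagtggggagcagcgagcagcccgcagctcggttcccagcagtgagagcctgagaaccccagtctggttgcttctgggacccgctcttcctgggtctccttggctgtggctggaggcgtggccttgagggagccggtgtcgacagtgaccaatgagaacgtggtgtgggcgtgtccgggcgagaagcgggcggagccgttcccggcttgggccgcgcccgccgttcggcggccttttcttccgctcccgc
Slc8a1: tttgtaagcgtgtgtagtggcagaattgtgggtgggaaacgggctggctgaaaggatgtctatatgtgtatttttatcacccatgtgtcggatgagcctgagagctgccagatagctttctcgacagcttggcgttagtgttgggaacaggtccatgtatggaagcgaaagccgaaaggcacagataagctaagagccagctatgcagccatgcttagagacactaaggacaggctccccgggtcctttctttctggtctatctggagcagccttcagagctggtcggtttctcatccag
Slc22a2: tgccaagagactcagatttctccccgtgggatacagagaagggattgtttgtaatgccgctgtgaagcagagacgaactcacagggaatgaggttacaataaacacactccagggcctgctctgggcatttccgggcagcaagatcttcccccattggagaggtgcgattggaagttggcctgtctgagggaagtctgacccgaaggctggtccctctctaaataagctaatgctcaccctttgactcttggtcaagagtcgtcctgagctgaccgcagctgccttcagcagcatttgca
Slc22a3: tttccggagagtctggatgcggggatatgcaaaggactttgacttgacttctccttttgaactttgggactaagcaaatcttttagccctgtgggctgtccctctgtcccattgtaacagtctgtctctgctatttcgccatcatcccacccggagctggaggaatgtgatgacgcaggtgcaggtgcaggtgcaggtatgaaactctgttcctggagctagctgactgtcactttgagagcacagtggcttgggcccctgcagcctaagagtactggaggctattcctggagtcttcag
No letters are in capitals, because none of the motifs searched, which are spelled out with the other promoters, was in these 4 windows. The Slc25a30 window has a GC content of 66.7% and the Slc8a1 window 50.7%, and the median over all 32851 promoter windows of the table was 52.7%.

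The 3 listed mitochondrial carriers of the SLC25 family were lower, with a median ratio of 0.592. With 89.4% of all listed genes lower, 3 of 3 in this or another class is near the background. Slc25a30, an inner-membrane carrier related to the uncoupling proteins, had a mean of 1446 estimated counts in control and 621.5 in Alb-D2KO liver, a ratio of 0.430 (0.411 to 0.450). It lies on chromosome 14 from 75760117 to 75787037, and its ratio ranked 125 among the 1363 listed genes that were lower. Its length-scaled level (estimated counts per kb of exon and per 1000000 assigned reads, the scale on which genes are compared here) was 9.44 in control and 4.35 in Alb-D2KO. After division by the ratio of medians its ratio was 0.483, so that it stayed past 2-fold. Slc25a18, a glutamate carrier, was scarce, with means of 19.0 and 11.25 counts (ratio 0.592, 0.406 to 0.853). Slc25a27, also related to the uncoupling proteins, had means of 44.2 and 28.5 counts (ratio 0.645, 0.510 to 0.812). Slc25a30 held nearly all counts of the class, which summed to 1509 in control and 661 in Alb-D2KO. Slc8b1, the sodium-calcium exchanger of the inner mitochondrial membrane, is grouped below with ion exchange and was lower too.

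A list of 16 mitochondrial carriers common in liver, such as those of citrate, phosphate and adenine nucleotides, had no gene in the table. The listed SLC25 genes were therefore others than these.

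The 3 listed lipid transporters were lower, which is near the 89.4% of all listed genes. Abcd2, which imports very long-chain acyl-CoA into peroxisomes, had means of 189.2 counts in control and 98.75 in Alb-D2KO, a ratio of 0.522 (0.463 to 0.588). Slc27a1, a fatty acid transport protein with acyl-CoA synthetase activity, had means of 256.8 and 191.5 counts (ratio 0.746, 0.681 to 0.816), and was within 1.2-fold after division by the ratio of medians (0.838). Abca8a, an ABCA protein linked to sterol and lipid export, had means of 3539 and 2458 counts (ratio 0.695, 0.678 to 0.712). Abcd2 was the farthest from 1 and Abca8a the most abundant, with a length-scaled level of 16.8 in control against 0.95 for Abcd2. Slc22a5, the sodium-dependent carnitine transporter that brings in the carrier for mitochondrial fatty acid import, had means of 576.5 and 432.4 counts (ratio 0.750, 0.706 to 0.796, and 0.843 when divided by the ratio of medians). Of the 31-base words of its transcripts, 37.8% also occur in transcripts of other genes, mainly Slc22a21, so its count depends on how the authors' counting split shared reads. On a list of 11 fatty acid and carnitine carriers, 4 were in the table, and 4 of these 4 were lower: the 3 genes Slc27a1, Slc22a5 and Abcd2 and the non-member Cd36, a fatty acid translocase (means 599.8 and 364.25, ratio 0.607). Of all listed genes 89.4% were lower.

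The ABCC efflux pumps were the most abundant transporters of the table. Abcc3, a basolateral pump for glucuronides and other conjugates including bile acids, had means of 8805 counts in control and 5323 in Alb-D2KO, a ratio of 0.605 (0.595 to 0.615). It lies on chromosome 11 from 94343295 to 94392997. Its length-scaled level was 46.1 in control and 29.9 in Alb-D2KO, the highest of the 33 genes in both genotypes, and its ratio was 0.680 after division by the ratio of medians. Abcc6, a hepatocyte protein needed for the release of ATP that gives rise to plasma pyrophosphate, had means of 6275 and 5079 counts (ratio 0.809, 0.795 to 0.824). It was within 1.2-fold after division by the ratio of assigned reads (0.868). Abcc3 shared none of its words with other genes, and neither did Abcc6. The 4 ABC genes were lower in 4 of 4 cases, near the 89.4% of all listed genes. In counts not scaled by exon length, they held 41.6% of the summed control mean of all members.

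**Figure D4:**
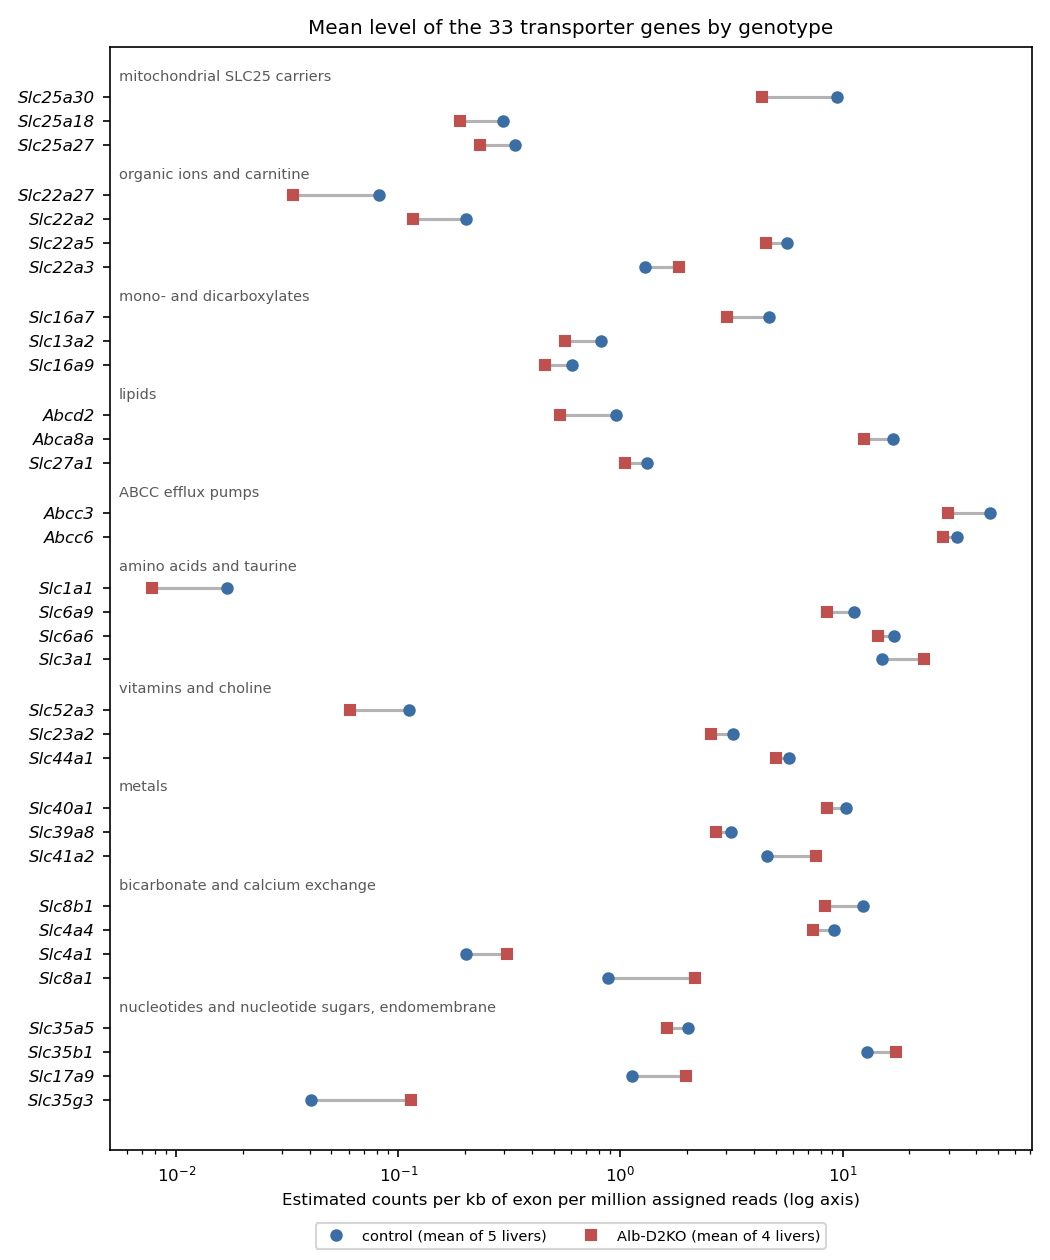
Mean level of each transporter gene in estimated counts per kb of exon and per 1000000 assigned reads (log axis) in control (circles, mean of 5 livers) and Alb-D2KO (squares, mean of 4 livers), by substrate class. Control levels run from below 0.1 (Slc1a1, Slc22a27, Slc35g3) to 46.1 (Abcc3), and squares lie left of circles in 25 genes.

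Summed over the 33 members, the mean count was 45220 in control and 35095 in Alb-D2KO (ratio 0.776). The summed ratio of all listed genes was 0.820. Both sums are as deposited, at depth ratios of 0.932 by assigned reads and 0.890 by library medians, and cover only genes filtered on this contrast. The lower members together decreased by 12198 counts and the higher members added 2073. Abcc3 alone gave 28.5% of the decrease, Abcc6 9.80%, Abca8a 8.86%, Slc6a6 8.64% and Slc25a30 6.76%. These are shares of counts that were not scaled by exon length, so long transcripts weigh more in them. By length-scaled level in control, 9 members were at 10 or more (7 lower, 2 higher, median ratio 0.760). From 1 to 10 there were 12 (9 lower, 3 higher, median ratio 0.752), and under 1 there were 12 (9 lower, 3 higher, median ratio 0.617). The 3 ranges had similar splits of direction, beside 89.4% lower among all listed genes, and the median was farthest from 1 where levels were lowest.

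Transporters of mono- and dicarboxylates were lower in the 3 listed cases, near the 89.4% of the whole list, with a median ratio of 0.643. Slc16a7, monocarboxylate transporter 2 for lactate, pyruvate and ketone bodies, had means of 1849 and 1118 counts (ratio 0.605, 0.583 to 0.627). Slc13a2, the sodium-dependent carrier of succinate and citrate, had means of 66.1 and 42.5 counts (ratio 0.643, 0.530 to 0.775). Slc16a9, known as a carnitine transporter, had means of 78.7 and 55.5 counts (ratio 0.705, 0.595 to 0.832). Slc16a7 held most of the counts of the class. Of the words of Slc13a2 and Slc16a9, 21.7% and 20.9% occur in other genes, mainly in antisense genes that overlap them. Since the strand setting of the counting is not given in the sources used here, reads of either strand cannot be told apart there.

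Of the 4 amino acid and taurine transporters, 3 were lower and 1 was higher, beside 89.4% lower among all listed genes. Slc6a6, the sodium-dependent taurine transporter that supplies taurine for bile acid conjugation, had means of 4849 and 3795 counts (ratio 0.783, 0.767 to 0.799), and was within 1.2-fold after division by the ratio of assigned reads (0.839). Slc6a9, glycine transporter 1, had means of 1942 and 1373 counts (ratio 0.707, 0.684 to 0.731). It shares 28.4% of its words, mainly with the overlapping gene Ccdc24, which was itself listed with means of 56.5 and 24.7 counts (ratio 0.436). Slc1a1, a glutamate and cysteine transporter, had means of 4.68 and 2 counts (ratio 0.428), and its counting interval of 0.168 to 1.01 includes 1. It also overlaps a gene on the other strand, with 31.5% of words shared. Slc3a1, the heavy subunit rBAT of the cystine and dibasic amino acid transporter, went the other way, with means of 1143 and 1651 counts (ratio 1.44, 1.39 to 1.496). Its length-scaled level was 15.0 in control and 23.3 in Alb-D2KO, the largest among the 8 higher genes. It shares 25.5% of its words with the overlapping gene Prepl on the other strand, which is not listed. A list of 11 glucose and amino acid carriers of liver had no gene in the table.

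Vitamin and choline transporters were lower in the 3 listed cases, again near the 89.4% of all listed genes. Slc52a3, a riboflavin transporter, had means of 10.4 and 5.25 counts (ratio 0.505, 0.289 to 0.853). Slc23a2, a sodium-dependent ascorbate transporter, had means of 852 and 635 counts (ratio 0.746, 0.71 to 0.783). Slc44a1, a choline transporter, had means of 1332 and 1084 counts (ratio 0.814, 0.783 to 0.846). Slc44a1 was the listed member closest to 1 and came within 1.2-fold after division by the ratio of assigned reads (0.873), and Slc23a2 did so after division by the ratio of medians (0.838).

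Among the metal transporters 2 were lower and 1 was higher, beside 89.4% lower among all listed genes. Slc40a1, ferroportin, the iron exporter of cells, had means of 3134 and 2382 counts (ratio 0.760, 0.741 to 0.78). Slc39a8, the importer ZIP8 for zinc, manganese and iron, had means of 811 and 642.5 counts (ratio 0.792, 0.754 to 0.833). Slc41a2, a magnesium transporter, was higher, with means of 822 and 1270 counts (ratio 1.54, 1.48 to 1.61). Scaled by the ratio of medians, both lower genes were within 1.2-fold (0.854 and 0.891), where Slc41a2 stood at 1.74. Of a list of 8 metal carriers of liver, 2 were listed, which are Slc40a1 and Slc39a8. Ferroportin is also made by liver macrophages, and none of 9 Kupffer cell markers was in the table, so this cell type could not be read from it.

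Carriers of bicarbonate and calcium were split, with 2 lower and 2 higher, beside 89.4% lower among all listed genes. The split of these 4 genes was not tested. Slc8a1, the sodium-calcium exchanger NCX1 of the plasma membrane, had means of 553 counts in control and 1267 in Alb-D2KO, a ratio of 2.29 (2.19 to 2.40). It lies on chromosome 17 from 81373105 to 81738377, and its ratio ranked 41 among the 162 listed genes that were higher. Its length-scaled level was 0.879 in control and 2.16 in Alb-D2KO. Slc8b1, its mitochondrial relative, had means of 1437 and 903.5 counts (ratio 0.629, 0.604 to 0.654), so the 2 listed genes of the SLC8 family had opposite directions. The difference between them was not tested. Slc4a4, the sodium bicarbonate cotransporter NBCe1, had means of 3304 and 2489 counts (ratio 0.753, 0.735 to 0.772), and came within 1.2-fold when divided by the ratio of medians (0.847). Slc4a1, the chloride-bicarbonate exchanger band 3 of red cells, had means of 33 and 47 counts (ratio 1.42, 1.15 to 1.77). It was the only 1 of 8 erythroid markers in the table, and the globin genes among them have no value here.

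The nucleotide and endomembrane transporters had the most higher genes of any class, with 3 higher and 1 lower. Of all 1525 listed genes 162 were higher. The class has 4 members, of which Slc35g3 has no known substrate, and its split was not tested. Slc35b1, an ATP and ADP exchanger of the endoplasmic reticulum, had means of 961 and 1206 counts (ratio 1.25, 1.21 to 1.31). Slc17a9, which loads nucleotides into vesicles, had means of 120.4 and 197.5 counts (ratio 1.64, 1.47 to 1.83). Slc35g3, an SLC35 member of unknown substrate, had means of 2.20 and 5.75 counts (ratio 2.61, 1.22 to 5.94), the highest ratio of all members and among the least precise. Slc35a5, a Golgi member of the nucleotide sugar transporters, was lower, with means of 548.6 and 410.5 counts (ratio 0.748, 0.703 to 0.796, and 0.841 when divided by the ratio of medians). Slc35b1 was the most abundant of the 4, with a length-scaled level of 12.9 in control and 17.4 in Alb-D2KO.

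The organic ion transporters of the SLC22 family held 3 lower and 1 higher gene, beside 89.4% lower among all listed genes. Slc22a2, organic cation transporter 2, had means of 16.8 and 9.005 counts (ratio 0.535, 0.352 to 0.801). Slc22a3, organic cation transporter 3, had means of 193.9 and 258.2 counts (ratio 1.33, 1.22 to 1.45). They lie 76428 bases apart on chromosome 17, from 12584132 to 12628488 and from 12418960 to 12507704. The counting intervals of these neighbours lie on opposite sides of 1. The list was filtered on this contrast and the pair was chosen for its directions, so this is no evidence of a difference. The intervals leave out the spread between animals, and the difference between the 2 genes was not tested. Slc22a3 overlaps Plg, the plasminogen gene of hepatocytes, by 426 bases on the other strand and shares 8.69% of its words, mainly with Plg, which was not listed. Slc22a27, a rodent organic anion transporter, had means of 5.88 and 2.25 counts (ratio 0.383, 0.162 to 0.842), the lowest ratio of the group. Its count is uncertain, since 46.9% of its words also occur in other genes, mainly Slc22a29. Slc22a5 is described with the lipid transporters.

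Of all annotated protein-coding genes 4.78% were listed. Among the lists of known transporters, fatty acid and carnitine carriers (4 of 11) and metal carriers (2 of 8) had larger shares. The annotated genes include many that liver does not express, and the lists were chosen with earlier results of these data known. The 2 kinds of share are thus not like for like, and no gap was tested. The other lists had few genes or none. Of 20 bile acid and drug transporters, which include the sinusoidal uptake carriers and the canalicular pumps, 1 was listed, Abcc3. That share is near the 4.78% of all annotated genes. Of 11 genes known to carry thyroid hormones, none was listed, and no value can be given for them here. Dio2, the gene that the Cre deletes, was not listed either, so the labels could not be checked against it. The authors state that the liver silences Dio2 soon after birth, so its absence from an adult list says nothing about the labels.

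Markers of other cells were few in the table, and their part in the results was not tested. None of 6 stellate cell markers was listed. Among cholangiocyte markers 1 of 6 was, Sox9 (means 180.8 and 273, ratio 1.51), and among kidney tubule markers 1 of 7, Lrp2 (66.8 and 154, ratio 2.31). Among endothelial markers 2 of 5 were, Stab2 (3387 and 2726, ratio 0.805) and Kdr (2291 and 1806, ratio 0.789). Of 6 hepatocyte markers Cyp2e1 was listed, with means of 133437 and 95406 counts (ratio 0.715), and the other 5 have no value here. The marker ratios are not divided by a depth ratio, and 89.4% of all listed genes were lower.

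Sharing of sequence touches 7 members, whose transcripts have at least 10% of their words in other genes, and 26 have less. Leaving the 7 out, 19 members were lower and 7 were higher, with a median log2 ratio of -0.41. Of all listed genes 89.4% were lower.

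The promoter windows of RefSeq covered 22 of the 33 members, with 30 windows. They were searched on both strands for AGGTCA, the half-site bound by nuclear receptors, for its direct repeats with 1 base (DR1) and 4 bases (DR4) between the copies, for the STAT motif TTCNNNGAA and for the E-box CACGTG. A repeat also counts as a half-site. The half-site was in 4 of 30 windows (13.3%), of the genes Slc22a27, Slc39a8 and Slc4a4, and in 16.3% of all windows. The direct repeats were in none of them, and in 0.0396% (DR1) and 0.0152% (DR4) of all windows. The STAT motif was in 1 window (3.33%), of Slc35b1, against 8.30%, and the E-box in 4 (13.3%), of Abca8a, Slc27a1, Slc35a5 and Slc39a8, against 7.15%. The median GC content was 58.8% in the windows of members and 52.7% in all. The window of the second start of Slc39a8, the zinc importer with a ratio of 0.792, is printed because it held both a half-site and an E-box (chr3:135825407-135825706, plus strand). Capitals mark the half-site at base 17 and the E-box at base 180.
Slc39a8: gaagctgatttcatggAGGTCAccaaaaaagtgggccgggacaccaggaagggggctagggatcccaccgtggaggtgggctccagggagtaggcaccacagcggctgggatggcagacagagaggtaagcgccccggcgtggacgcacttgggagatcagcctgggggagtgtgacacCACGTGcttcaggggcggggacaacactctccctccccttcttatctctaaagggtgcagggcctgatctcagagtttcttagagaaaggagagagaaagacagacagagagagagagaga
Such matches are descriptions of letters and do not show binding.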

How the data were processed

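Liver RNA of 9 adult mice (5 control, 4 Alb-D2KO) was sequenced as paired-end libraries. The authors aligned the reads with STAR to GENCODE M24 genes (mm10) in Partek Flow and quantified them by the Partek E/M method with the normalization named absolute value. The kit and strand setting are not given in the sources used here. The authors' deposited gene table holds the expected (estimated) count summed over libraries and the mean estimated count per genotype. The deposited library summaries hold the read count and the percent of reads by position for each library, and the distribution of estimated counts over genes. The means, weighted by 4 Alb-D2KO and 5 control libraries, gave back the summed count in 1525 of 1525 genes (relative tolerance 0.001). In 16 of 33 members both sums were whole (tolerance 0.01), so the means were read as not scaled for depth. The table's own p-value, FDR, ratio and fold change of this contrast (4 columns) and the enrichment tables were not used, and 4 columns of values per library were left out.

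Groups came from the genotype labels, and replicate numbers followed accession order and pair no samples. Each library is labelled as a separate liver. Ratios and Clopper-Pearson intervals were computed from 5 times the control mean and 4 times the Alb-D2KO mean as counts. Reads assigned to genes were computed from the total and the percent of reads that lie fully in an exon. 6 library measures were compared by an exact permutation test over the 126 divisions, with Benjamini-Hochberg adjustment. Levels per kb used the exon union of GENCODE M21 (33 of 33 members and 1496 of 1525 listed symbols matched). Shared sequence was the percent of a gene's distinct 31-base words found in transcripts of other genes. All members are named with their values, and non-members only where they bear on a member or list. The members, classes and lists were chosen with earlier results of these data known. The interval and permutation code was tested on simulated data. Python 3.11.15, numpy 2.4.6, pandas 2.3.3, scipy 1.17.1 and matplotlib 3.10.9 were used. Alternatives were 4 depth ratios, count minimums of 100 and 1000, a pseudocount of 1, leaving out each library, and leaving out members with shared sequence.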

Additional observations from a re-analysis of the deposited data

Results flagged for a closer look

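Alb-D2KO replicate 1 had 50322325 total reads, well above the next library of its genotype, which had 41723927. The gap was 0.852 of the range of the group. It was the only library set apart in 12 groups of values examined, where 0.6 would be set apart by chance. The transporter means of Alb-D2KO include this library, and since no gene value per library was used, they cannot be given without it.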

How the results depend on the processing

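The 4 depth divisions raise each ratio by at most 1.124-fold and adding 1 to both means keeps the sign of a difference, so neither could turn a direction in a list whose smallest fold is 1.21. As deposited, 25 transporters were lower by over 1.2-fold. Division by the ratios of assigned reads, total reads, upper quartiles and medians left 21, 18, 21 and 15, against 78.4%, 68.3%, 74.5% and 65.0% of all listed genes, and could not lower the count of 8 higher. A summed count of at least 100 or 1000 left 22 or 17 lower and 7 or 6 higher, by testing fewer genes. Of all listed genes at these minimums 89.7% and 90.1% were lower. Lower by over 1.5-fold were 12 as deposited, 9, 7, 9 and 7 after the divisions, and 9 and 5 at the count minimums, where 45.1%, 35.9%, 32.6%, 34.7%, 31.4%, 38.6% and 20.5% of all listed genes were. The median log2 ratio of -0.42 became -0.27 after division by total reads and -0.25 after division by medians, which shift every gene equally. The alternative without members of shared sequence was chosen after seeing the data. Leaving out 1 library moved the log2 difference in assigned reads from -0.18 to -0.06 and that in the median over genes from -0.28 to -0.10. Without Alb-D2KO replicate 1 the latter was -0.28 with an unadjusted exact permutation p of 0.0357, against 0.175 with all libraries. That p is the smallest possible without this library. The cause of the change was not tested. On the linear scale the difference in assigned reads was -2267670 reads (exact permutation p = 0.317). No paired analysis was possible because the labels give no replicate numbers and the gene table holds 1 mean per genotype.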
